A study of Chlamydomonas reinhardtii with 8 samples.

Results

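Among the genes of the green alga Chlamydomonas reinhardtii, 35 of 17693 measured were lower in the mt+ libraries labelled dnmt1 than in wild type (WT) of the same mating type, and higher in the mt- libraries labelled dnmt1 than in WT. They were chosen on the deposited normalized counts, which are read counts per gene divided by 1 size factor per library. The lowest WT mt+ library had to be at least 1.3 times the highest library labelled dnmt1 mt+, the lowest library labelled dnmt1 mt- at least 1.3 times the highest WT mt- library, and the mean of the 8 libraries at least 20. The organelle genes, the mating-type region of chromosome 6 and 6 single loci were left out in advance. Because these values chose the members, the difference between genotypes in each mating type is given below as a description with no test.

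Chlamydomonas is a haploid, single-celled alga with a plus and a minus mating type, set by a region of chromosome 6. DNMT1-type enzymes are DNA cytosine methyltransferases; such enzymes copy methyl groups onto newly made DNA at replication, and in many organisms the marks lie on silenced repeats and genes. In this alga, cytosine methylation is best known from the chloroplast DNA of the mt+ parent at mating. The study's title places the work at the sex-determining region; the genes described here lie outside it.

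RNA of vegetative cells, grown mixotrophically in acetate-containing TAP medium under continuous light, was sequenced in 4 groups of 2 biological replicates: WT mt+ and dnmt1 mt+ (CC-5155 strains) and WT mt- and dnmt1 mt- (CC-5325 strains). The labels give the dnmt1 groups as a DNMT1 knockout, without the lesion or the number of clones, and mating type and strain are the same contrast. Between 12204374 and 21115955 counts were assigned per library. The locus taken as DMT1 in earlier work on these data, Cre10.g461750 (no table used here pairs the name and the ID), had 443 and 442 normalized counts in the WT mt+ libraries and 248 and 205 in those labelled dnmt1 mt+. WT mt- gave 455 and 388, and the libraries labelled dnmt1 mt- gave 1322 and 1422. At this locus the mt- libraries labelled dnmt1 thus lay above all others. Whether these counts go with the knockout label could not be told, since the lesion is not given, and the labels were not checked otherwise. The groups are therefore called by their labels, and each direction below rests on them. A culture holds cells at many stages of growth, so a change in all cells cannot be told apart from a change in the share of cells that express a gene.

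Of 14034 genes with a mean of at least 20 and not left out, 5.31% met the ratio in mt+ and 8.43% met the ratio in mt-, and the 35 members, 0.249%, met both. The same thresholds found 217 genes with the opposite pattern (higher in the libraries labelled dnmt1 mt+, lower in those labelled dnmt1 mt-), 211 lower in both and 208 higher in both, so the pattern described here was the smallest of the 4 classes. It was also the smallest with TMM-scaled values (33 genes, against 218, 195 and 221) and with library size scaling (26, against 243, 235 and 184). The number found depended on single libraries, since leaving one out loosens the rule. It found 112 genes without WT mt+ replicate 2, and 56 without replicate 1 of that group. Dropping dnmt1 mt+ replicate 1 or 2 gave 65 and 58 genes, and dropping WT mt- replicate 1 or 2 gave 57 and 46. Dropping dnmt1 mt- replicate 1 or 2 gave 49 and 55. Each of these 8 lists held 33 to 35 of the 35 members, the fewest without dnmt1 mt- replicate 1. A gene that meets the ratios with all 8 libraries also meets them with 1 left out. Only the minimum mean could remove a member, so nothing is read from this overlap.

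**Figure D1:**
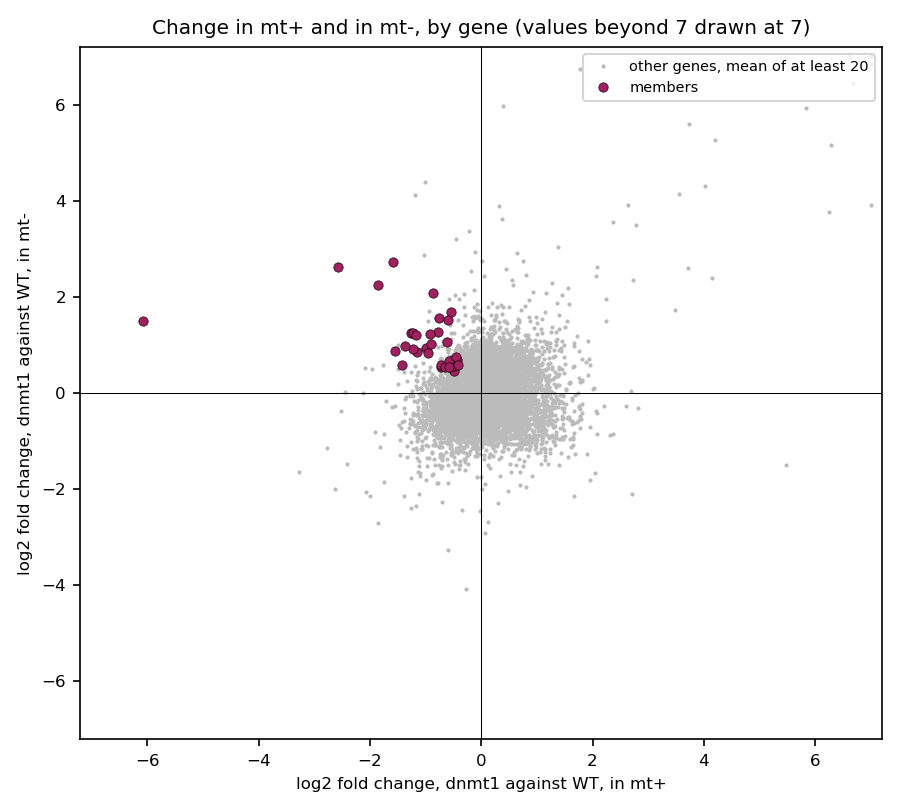
Each point is a gene with a mean of at least 20 normalized counts; the x axis is its log2 fold change (libraries labelled dnmt1 against WT) in mt+ and the y axis that in mt-, from the edgeR fit. The 35 members lie at the upper left by the rule that chose them, from -6.07 to -0.42 on x and from 0.46 to 2.73 on y; left-out loci are among the other genes.

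Just inside the thresholds stood Cre14.g613800, Cre10.g438250 and Cre07.g346350, whose smaller ratio was 1.301, 1.304 and 1.307. Just outside stood Cre02.g097600 (1.291), Cre12.g545750 (1.285) and Cre02.g089500 (1.284). The last had 244 and 218 normalized counts in the WT mt+ libraries and 64.7 and 52.1 in those labelled dnmt1 mt+. WT mt- gave 63.2 and 52.3, and the libraries labelled dnmt1 mt- gave 81.1 and 83.0. It thus met the ratio in mt+ by a wide margin and missed it in mt-. Of the single loci left out in advance, 5 met the thresholds: Cre10.g461750, Cre04.g223100, Cre05.g248400, Cre05.g248450 and Cre16.g651050. The largest difference in mt- among them was at Cre05.g248400, with 9635 and 6807 normalized counts in the WT mt+ libraries and 4071 and 3975 in those labelled dnmt1 mt+. WT mt- gave 390.2 and 429, and the libraries labelled dnmt1 mt- gave 8824 and 8114.

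The reference table used here gives no symbol or product for any of the 35 members, so they are named by locus ID alone and no function is given. Their means over the 8 libraries ran from 21.1 to 1802 normalized counts, with a median of 215, near the 237 of all genes with a mean of at least 20. These levels are not per length of gene, so they do not rank the genes by transcript number. In edgeR's fit to all 15263 tested genes, the members' log2 fold changes had a median of -0.77 in mt+ and 0.92 in mt-, beside 0.00 and 0.01 over all tested genes. At least a 2-fold difference was seen for 12 members in mt+, for 15 in mt- and for 7 in both. The change was larger in mt- for 21 members and larger in mt+ for 14. The threshold of edgeR's quasi-likelihood test (Benjamini-Hochberg adjusted p of 0.05) was passed by 30 members in mt+ (8.83% of all tested genes were called lower there), by 34 in mt- (11.9% called higher) and by 30 in both (0.780%); the rule used these contrasts, so nothing is read from these counts. The 5 members not called in mt+ were Cre04.g214000, Cre10.g450950, Cre12.g542200, Cre14.g613800 and Cre17.g719500, and Cre12.g542200 was also not called in mt-.

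The 7 members that differed at least 2-fold in both mating types were led by Cre10.g463370, a gene of low level. It had 48.0 and 31.3 normalized counts in the WT mt+ libraries and 6.47 and 6.25 in those labelled dnmt1 mt+. WT mt- gave 7.02 and 8.54, and the libraries labelled dnmt1 mt- gave 62.1 and 31.9. The log2 fold changes were -2.58 ± 0.52 in mt+ and 2.61 ± 0.47 in mt-. All 4 libraries of WT mt+ and dnmt1 mt- lay above the other 4 and overlapped each other, and the low groups rest on 6 to 10 counts per library.

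Cre02.g114350 was next by the smaller of its absolute changes. It had 173 and 171 normalized counts in the WT mt+ libraries and 44.4 and 50.0 in those labelled dnmt1 mt+. WT mt- gave 50.5 and 41.6, and the libraries labelled dnmt1 mt- gave 233 and 204, with log2 fold changes of -1.85 ± 0.20 in mt+ and 2.24 ± 0.20 in mt-. Its libraries labelled dnmt1 mt+ overlapped those of WT mt-, and its libraries labelled dnmt1 mt- lay above those of WT mt+.

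Cre13.g801582 had the largest difference in mt+ of all members. It had 45.4 and 37.8 normalized counts in the WT mt+ libraries and 0.925 and 0 in those labelled dnmt1 mt+. WT mt- gave 9.82 and 19.2, and the libraries labelled dnmt1 mt- gave 37.0 and 41.5. In mt+ this was 75 counts in WT against 1 count in the libraries labelled dnmt1, a ratio of 83.5 with an exact 95% counting interval of 14.5 to 3342 that covers at most counting error. The interval may be too narrow, since both mates of a read pair may have been counted. With a single count in the libraries labelled dnmt1 mt+, the fitted log2 fold change of -6.07 depends on the prior count and is no bound. In mt- the gene was detected in every library, and the change was 1.5 ± 0.43 on the log2 scale, and its level in WT mt- lay between those of the other groups.

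Cre06.g278231 had 65.4 and 32.3 normalized counts in the WT mt+ libraries and 15.7 and 15.6 in those labelled dnmt1 mt+. WT mt- gave 2.11 and 8.54, and the libraries labelled dnmt1 mt- gave 32.0 and 31.9. Its WT mt+ libraries differed from each other by about as much as the higher one differed from those labelled dnmt1 mt-, and WT mt- replicate 1 rested on 3 counts. The log2 fold changes were -1.58 ± 0.47 in mt+ and 2.73 ± 0.58 in mt-.

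The other 3 of the 7 were of moderate level. Cre11.g468800 had 580.4 and 369.7 normalized counts in the WT mt+ libraries and 214 and 175 in those labelled dnmt1 mt+. WT mt- gave 152 and 136, and the libraries labelled dnmt1 mt- gave 355 and 331, with changes of -1.26 ± 0.18 in mt+ and 1.26 ± 0.19 in mt- on the log2 scale. Cre14.g616650 had 302 and 242 normalized counts in the WT mt+ libraries and 107 and 131 in those labelled dnmt1 mt+. WT mt- gave 123 and 88.6, and the libraries labelled dnmt1 mt- gave 268 and 219, with changes of -1.17 ± 0.19 in mt+ and 1.2 ± 0.19 in mt-. In both genes the change was of similar size in the 2 mating types, and in the second the pairs WT mt+ and dnmt1 mt-, as well as dnmt1 mt+ and WT mt-, overlapped. Cre12.g493300 had 112 and 63.6 normalized counts in the WT mt+ libraries and 31.4 and 41.6 in those labelled dnmt1 mt+. WT mt- gave 30.9 and 34.2, and the libraries labelled dnmt1 mt- gave 79.1 and 73.4, with changes of -1.23 ± 0.31 in mt+ and 1.25 ± 0.31 in mt-, and both of those pairs overlapped as well.

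**Figure D2:**
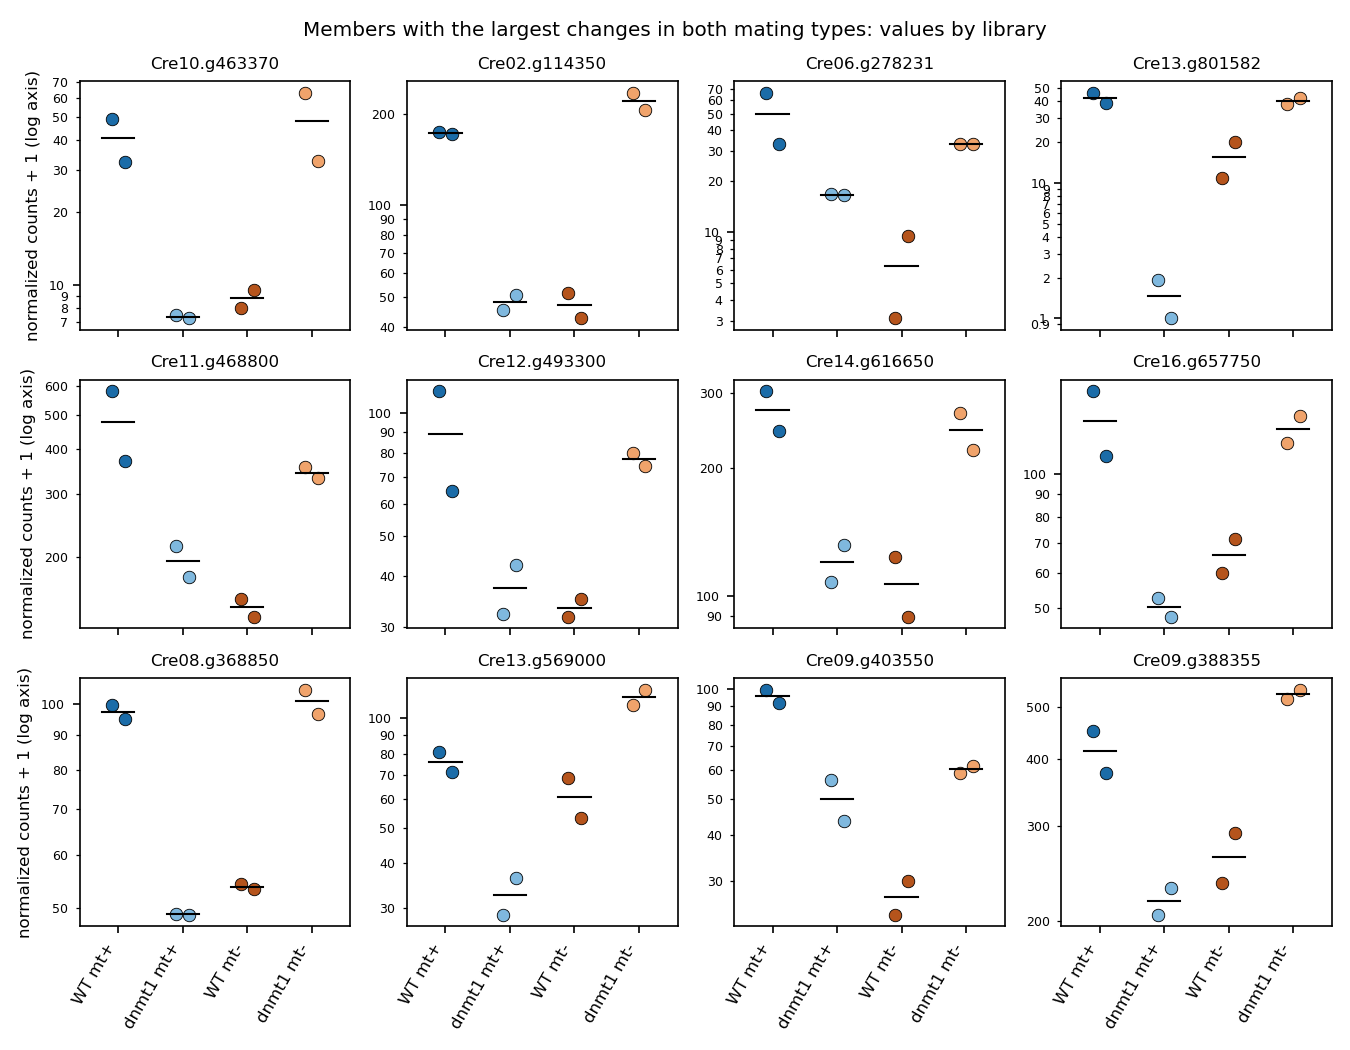
Normalized counts plus 1 (log axis, its range set per gene) in each of the 8 libraries for the 12 members with the largest value of the smaller of their 2 absolute log2 fold changes; points are libraries and bars are means of 2. In every panel WT lies above dnmt1 in mt+ and below it in mt-, as the rule required. The group with the lowest mean is WT mt- in Cre02.g114350, Cre06.g278231, Cre09.g403550, Cre11.g468800, Cre12.g493300 and Cre14.g616650, and dnmt1 mt+ in the other 6 panels.

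The next 5 by the same ranking had smaller changes. Cre16.g657750 had 152 and 109 normalized counts in the WT mt+ libraries and 51.8 and 46.8 in those labelled dnmt1 mt+. WT mt- gave 58.9 and 70.5, and the libraries labelled dnmt1 mt- gave 116 and 134. Cre08.g368850 had 98.7 and 94.0 normalized counts in the WT mt+ libraries and 48.1 and 47.9 in those labelled dnmt1 mt+. WT mt- gave 53.3 and 52.3, and the libraries labelled dnmt1 mt- gave 104 and 95.7. The replicates of each group lay close together, and the log2 fold changes were -0.99 ± 0.23 in mt+ and 0.93 ± 0.22 in mt-. Cre13.g569000 had 80.1 and 70.1 normalized counts in the WT mt+ libraries and 27.7 and 35.4 in those labelled dnmt1 mt+. WT mt- gave 67.4 and 52.3, and the libraries labelled dnmt1 mt- gave 108 and 119. The mt- libraries labelled dnmt1 stood above all others and the mt+ ones below all others. The remaining members of this ranking, Cre09.g403550 and Cre09.g388355, are described with the groups they belong to.

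The highest means belonged to Cre07.g346350, Cre13.g588100, Cre01.g001983, Cre06.g278186 and Cre16.g687400, and these had small changes with small errors. Cre07.g346350 had 1657 and 1785 normalized counts in the WT mt+ libraries and 1235 and 1268 in those labelled dnmt1 mt+. WT mt- gave 1669 and 1599.6, and the libraries labelled dnmt1 mt- gave 2548 and 2653, with log2 fold changes of -0.44 ± 0.08 in mt+ and 0.68 ± 0.08 in mt-. Its WT libraries overlapped between the mating types. Cre13.g588100 had 1984 and 2022 normalized counts in the WT mt+ libraries and 1434 and 1459.6 in those labelled dnmt1 mt+. WT mt- gave 1105 and 1135, and the libraries labelled dnmt1 mt- gave 1909 and 1824, with changes of -0.45 ± 0.08 in mt+ and 0.75 ± 0.08 in mt-, and its WT mt- libraries were the lowest of all. In Cre01.g001983, Cre06.g278186 and Cre16.g687400 the changes lay between -0.58 and -0.49 in mt+ and between 0.46 and 0.58 in mt-, at standard errors of 0.08 to 0.09.

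The rule fixed neither how the libraries labelled dnmt1 mt- compared with WT mt+ nor how those labelled dnmt1 mt+ compared with WT mt-, so the members could be sorted by these pairs, as a description. In 11 members the libraries labelled dnmt1 mt- lay above WT mt+ and those labelled dnmt1 mt+ below WT mt-, so that the labelled dnmt1 groups formed both extremes. Cre09.g388355, Cre10.g450000 and Cre13.g569000 were of this kind; Cre10.g450000 had 682 and 644 normalized counts in the WT mt+ libraries and 471 and 456 in those labelled dnmt1 mt+. WT mt- gave 572 and 549.9, and the libraries labelled dnmt1 mt- gave 959 and 842. In 6 members the order was the reverse, with the WT groups at both extremes: Cre04.g214000, Cre06.g278231, Cre09.g403550, Cre11.g468800, Cre13.g588100 and Cre04.g229700. For Cre06.g278231 this rested on a small margin, with 32.3 normalized counts in WT mt+ replicate 2 against 32.0 and 31.9 in the libraries labelled dnmt1 mt-. Of the 6, Cre04.g214000 had 116 and 77.4 normalized counts in the WT mt+ libraries and 58.2 and 52.1 in those labelled dnmt1 mt+. WT mt- gave 26.7 and 24.6, and the libraries labelled dnmt1 mt- gave 62.1 and 61.7, and Cre09.g403550 had 98.7 and 90.3 normalized counts in the WT mt+ libraries and 55.5 and 42.7 in those labelled dnmt1 mt+. WT mt- gave 23.2 and 28.8, and the libraries labelled dnmt1 mt- gave 58.1 and 60.6. In 3 members both pairs overlapped, and in the other 15 the pairs gave other combinations. Of the 14034 genes, 10.2% had the labelled dnmt1 order of both pairs seen in 11 members, 11.0% had the reverse, 13.0% overlapped in both pairs and 65.9% gave other combinations. The rule narrows the orders the 4 groups can take, and whether the members differ from other genes in this was not tested.

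Taken pair by pair, the libraries labelled dnmt1 mt- lay above WT mt+ in 16 members, below in 7 and overlapped in 12, where 27.6% and 27.4% of the 14034 genes were above and below. The libraries labelled dnmt1 mt+ lay below WT mt- in 21, above in 9 and overlapped in 5, where 35.1% and 37.6% of the 14034 genes were below and above. Among group means, dnmt1 mt- was the highest in 21 members and WT mt+ in 14, and dnmt1 mt+ was the lowest in 22 and WT mt- in 13. The rule lets only dnmt1 mt- or WT mt+ be the highest, and only dnmt1 mt+ or WT mt- the lowest. The matching shares of the 14034 genes were not counted, so nothing is read from this split. Between the mating types, WT mt+ lay above WT mt- without overlap in 32 members and below it in 1 (28.9% and 30.3% of the 14034 genes), and dnmt1 mt+ below dnmt1 mt- in all 35 (35.3%). The rule favours both of these directions, since it asks for high WT mt+ and dnmt1 mt- libraries and low WT mt- and dnmt1 mt+ ones, so they are no separate result. The exception in WT was Cre14.g613800, which had 89.4 and 91.3 normalized counts in the WT mt+ libraries and 64.7 and 68.7 in those labelled dnmt1 mt+. WT mt- gave 161 and 149, and the libraries labelled dnmt1 mt- gave 211 and 249. It was higher in mt- than in mt+ in either genotype.

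A run of neighbouring genes on chromosome 9 held 3 members. In the gene order of the v5.5 RefSeq annotation, Cre09.g388353 and Cre09.g388355 are next to each other, and Cre09.g388351 is separated from them by 1 gene, Cre09.g388352. Cre09.g388351 had 749.9 and 608 normalized counts in the WT mt+ libraries and 306 and 294 in those labelled dnmt1 mt+. WT mt- gave 364 and 467, and the libraries labelled dnmt1 mt- gave 793 and 687, with log2 fold changes of -1.16 ± 0.14 in mt+ and 0.86 ± 0.13 in mt-. Cre09.g388353 had 474 and 373 normalized counts in the WT mt+ libraries and 280.1 and 263 in those labelled dnmt1 mt+. WT mt- gave 267 and 290.4, and the libraries labelled dnmt1 mt- gave 611 and 545, with changes of -0.61 ± 0.13 in mt+ and 1.07 ± 0.13 in mt-. Cre09.g388355 had 449.6 and 375 normalized counts in the WT mt+ libraries and 204 and 229 in those labelled dnmt1 mt+. WT mt- gave 234 and 290.4, and the libraries labelled dnmt1 mt- gave 516 and 537, with changes of -0.91 ± 0.14 in mt+ and 1.03 ± 0.14 in mt-. In all 3 the WT mt+ replicates differed in the same direction, replicate 1 being higher.

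The gene between them did not share the pattern. Cre09.g388352 had 743 and 584 normalized counts in the WT mt+ libraries and 708 and 686 in those labelled dnmt1 mt+. WT mt- gave 865 and 912, and the libraries labelled dnmt1 mt- gave 965 and 922, with log2 fold changes of 0.10 ± 0.11 in mt+ and 0.10 ± 0.11 in mt-, and its WT mt+ libraries were not above those labelled dnmt1 mt+. The gene before the run, Cre09.g388350, had the same signs at low level (-0.50 ± 0.35 in mt+ and 0.44 ± 0.32 in mt-; smaller ratio 1.11), and the gene after it, Cre09.g388200, had changes of -0.05 ± 0.09 in mt+ and 0.20 ± 0.09 in mt- at a level of 52983 normalized counts. Whether strand was used in counting is not given in the sources used here, so reads of overlapping or antisense transcripts in this run could not be told apart.

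**Figure D3:**
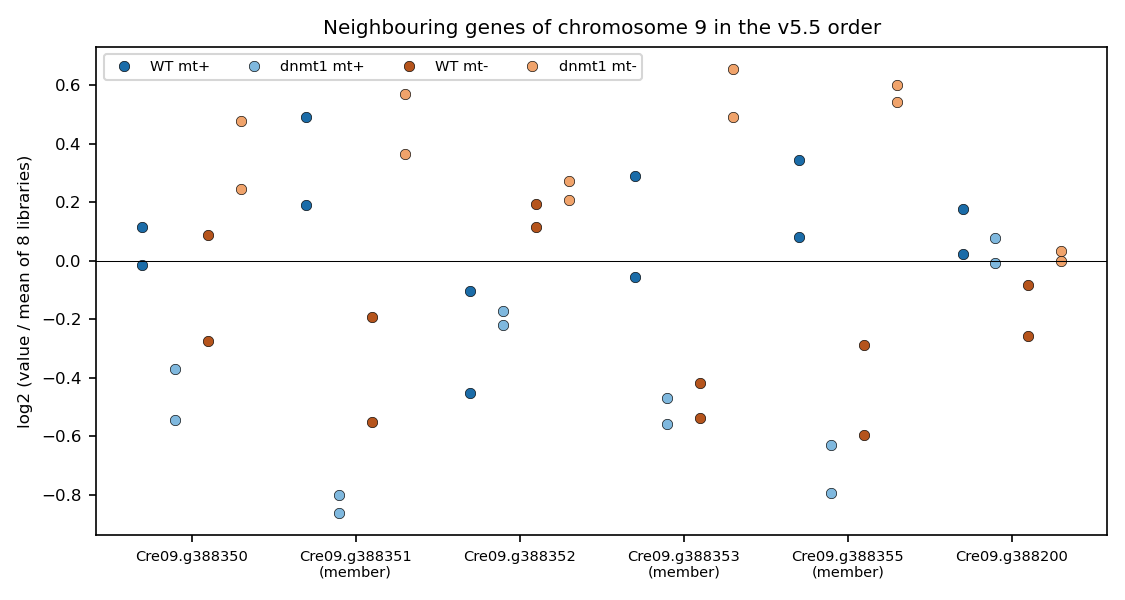
For 6 genes in the v5.5 order on chromosome 9, the y axis gives log2 of each library's normalized count over the gene's mean of the 8 libraries; 2 points per group are the replicates. In the 3 members WT mt+ and dnmt1 mt- lie above dnmt1 mt+ and WT mt-, and in Cre09.g388352 both mt- groups lie above both mt+ groups.

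Apart from this run, no 2 members were within 2 places of each other in that order, and the next closest pair was 22 places apart. The members matched to the reference numbered 31, and they had 54 tested immediate neighbours that were not members. Of these, 21 (38.9%) had a log2 fold change below 0 in mt+ and above 0 in mt-, a combination of signs that 21.8% of all tested genes had. Only 2 of the 54 (3.70%) were called lower in mt+ and higher in mt- by edgeR, against 0.780% of all tested genes: Cre02.g115950, next to Cre02.g116000, with log2 fold changes of -0.73 and 0.74, and Cre12.g493250, next to Cre12.g493300, with -0.35 and 0.25. The neighbours were not part of the rule, but no test of these shares was made, and neighbours that overlap a member can share its reads.

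By the numbers in their IDs, the members lay on 14 of the 17 chromosomes, with 6 on chromosome 9, 4 each on chromosomes 10 and 12, 3 on chromosome 13, and none on chromosomes 3, 5 and 15. Chromosome 9 held 947 of the 14034 genes, and chromosome 3, with no member, 1347. Of the 35 IDs, 4 (11.4%) had a number beginning with 8, a series that the v5.5 table does not hold, against 6.07% of the 14034 genes. These 4 were Cre01.g800071, Cre09.g801065, Cre12.g801350 and Cre13.g801582.

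One comparison was left free by the rule: mt+ against mt-, averaged over WT and the libraries labelled dnmt1. With equal weights for the libraries this contrast is orthogonal to both contrasts of the rule, so the members could be tested on it. Weights are unequal where a group has few counts, as in Cre13.g801582, Cre06.g278231 and Cre10.g463370. There the contrast is not free of the rule. The rule still favours genes whose replicates lie close together, and the spread of the same libraries enters the test. The members' p-values and the share called can be affected by this, by an amount that was not tested. Of the 35, 7 were higher in mt+ and 10 higher in mt- (adjusted p under 0.05, edgeR with Benjamini-Hochberg adjustment), and 18 were not called. Over all 15263 tested genes, 13.6% were called higher in mt+ and 14.0% higher in mt-, or 27.6% in either direction, and 29.1% of the tested genes with a mean of at least 20 were called. The members' 48.6% was above these shares. Their median log2 fold change was -0.15, beside 0.02 over all tested genes, and their median absolute change was 0.28, beside 0.20 over tested genes with a mean of at least 20. Whether the members differ from other genes in this was not tested. For every member but Cre14.g613800 this average joins a higher level in WT mt+ with a lower level in the libraries labelled dnmt1 mt+, so it says which of those was larger.

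Of the members higher in mt+ on average, Cre06.g278231 had the largest log2 fold change, 1.15 ± 0.39 (Benjamini-Hochberg adjusted p = 0.0381, edgeR). Next came Cre04.g214000, at 0.88 ± 0.20 (edgeR, adjusted p = 0.00439), and Cre09.g403550, at 0.82 ± 0.19 (edgeR, adjusted p = 0.00571). In Cre04.g214000 and Cre09.g403550 the mating types stood farther apart in WT than in the libraries labelled dnmt1: the log2 fold change of mt+ against mt- was 1.90 in WT and -0.15 between the libraries labelled dnmt1 for Cre04.g214000, and 1.89 and -0.25 for Cre09.g403550. For Cre06.g278231 they were 3.30 and -1.01, so its labelled dnmt1 groups were also apart, and mt- was the higher. Cre01.g800071 had 789.9 and 689 normalized counts in the WT mt+ libraries and 508 and 487 in those labelled dnmt1 mt+. WT mt- gave 236 and 264, and the libraries labelled dnmt1 mt- gave 795 and 799.8. Its average was 0.46 ± 0.08 (edgeR, adjusted p = 0.000477), and that of Cre11.g468800 was 0.46 ± 0.13 (edgeR, adjusted p = 0.0177).

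Of the members higher in mt- on average, Cre13.g801582 had the largest size, -2.21 ± 0.52 (Benjamini-Hochberg adjusted p = 0.00569, edgeR), which rests on the single count in the libraries labelled dnmt1 mt+ and is uncertain in size. The rule chose the gene partly on that low group, so nothing is read from its call. Cre14.g613800 was at -1.27 ± 0.13 (edgeR, adjusted p = 6.31e-06), with all 4 mt- libraries above all 4 mt+ libraries. Cre13.g569000 was at -0.76 ± 0.18 (edgeR, adjusted p = 0.00614), Cre07.g346350 at -0.47 ± 0.06 (edgeR, adjusted p = 3.61e-05) and Cre10.g450000 at -0.34 ± 0.07 (edgeR, adjusted p = 0.00234). In Cre07.g346350 the log2 fold change between the WT mating types was 0.09 and that between the libraries labelled dnmt1 -1.04. The 18 members not called lay between -0.84 and 0.19; the lowest was Cre10.g450950, a gene of low level, and Cre02.g114350 was at -0.15 ± 0.14 and Cre10.g463370 at -0.25 ± 0.37, with log2 fold changes between the mating types of 2.35 in WT and -2.85 in the libraries labelled dnmt1.

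**Figure D4:**
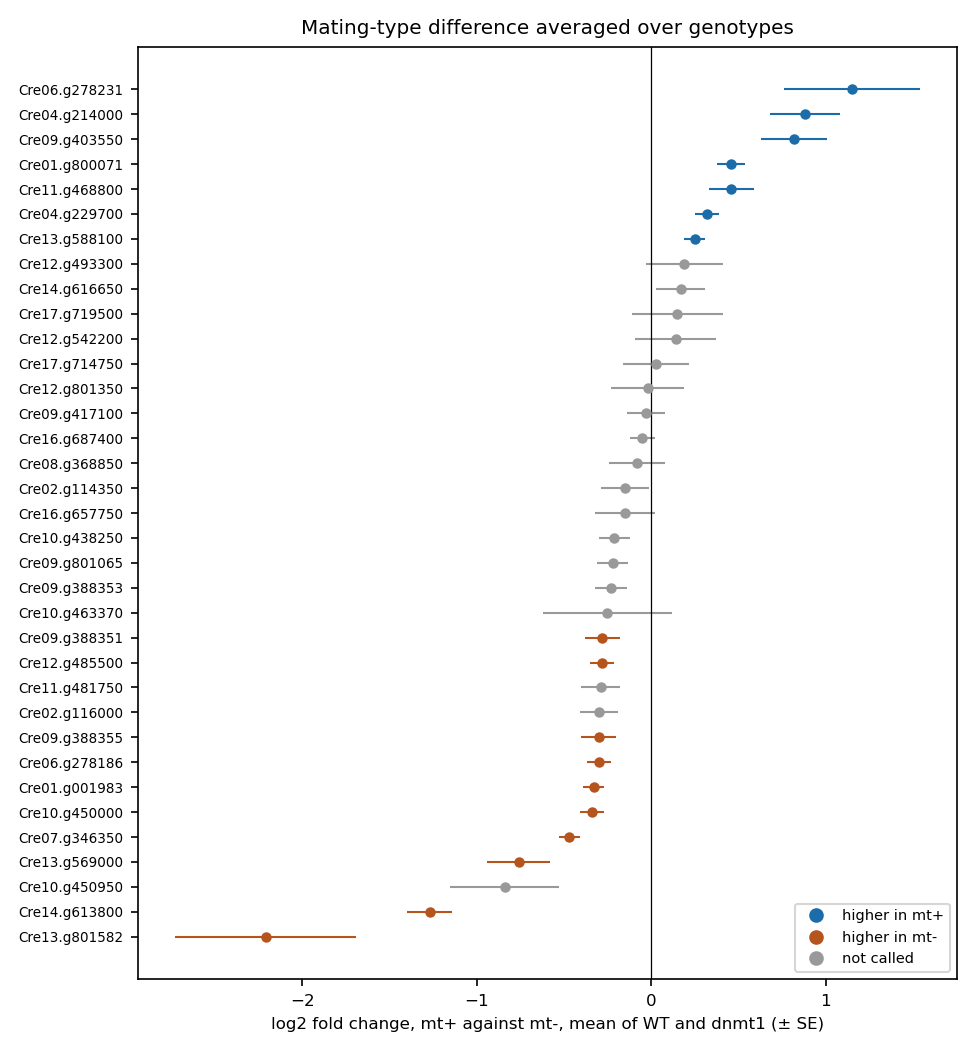
Points give each member's log2 fold change of mt+ against mt-, averaged over WT and the libraries labelled dnmt1, with bars of 1 standard error from the edgeR fit. 7 members are called higher in mt+ and 10 higher in mt-, from -2.21 to 1.15.

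Of these 17 calls, 12 held in every one of the 14 other settings in which the gene was tested, and 5 did not. That of Cre06.g278231 was lost with DESeq2 and without any 1 of 6 libraries, the largest adjusted p being 0.220 without WT mt- replicate 1. Those of Cre09.g388351 and Cre09.g388355 were lost without WT mt- replicate 2 (adjusted p = 0.223 and 0.176), without each of the 4 libraries labelled dnmt1, and among genes of at least 10 CPM. That of Cre11.g468800 was lost when WT mt- replicate 2, dnmt1 mt+ replicate 1 or dnmt1 mt- replicate 2 was dropped (edgeR, adjusted p = 0.0751, 0.0998 and 0.0659). That of Cre12.g485500 was lost when replicate 1 of either group labelled dnmt1 was dropped (edgeR, adjusted p = 0.0501 and 0.0503).

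The replicates of WT mt+ were the least alike over all genes. The standard deviation of their log2 difference was 0.41 over the 14034 genes, against 0.26 to 0.28 in the other groups. Among the members it was 0.29 in WT mt+, 0.39 in WT mt- and 0.25 in each group labelled dnmt1. The 0.39 includes low-level genes such as Cre06.g278231, with 2.11 and 8.54 normalized counts in WT mt-. The rule used the lowest or highest replicate of each group, so the members' spread is not free of it, and nothing is read from these values. In the members the WT mt+ difference leaned to one side. In 28 of the 35 members replicate 1 was higher than replicate 2, with a median log2 difference of 0.20, against 0.02 over the 14034 genes; in WT mt-, dnmt1 mt+ and dnmt1 mt- replicate 1 was higher in 17, 20 and 17 members, with median differences of -0.01, 0.01 and -0.01. How many of the 14034 genes had replicate 1 higher was not counted, so the 28 are not read as a trait of the members. Cre11.g468800, Cre04.g214000, Cre06.g278231 and Cre12.g493300 were among the members with WT mt+ replicate 1 well above replicate 2. The part of this library difference in the members' levels was not tested; by the rule, the lower replicate still stood at least 1.3 times above the libraries labelled dnmt1 mt+. All but 3 members had at least 10 counts in every library; the 3 were Cre06.g278231, Cre10.g463370 and Cre13.g801582.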

How the data were processed

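The authors deposited raw counts per gene and a second table of the signal after normalization, in which each library's raw counts are divided by a single size factor, as the values of the deposited tables show. Per the submitters' processing notes, the tools were featureCounts, STAR 2.7.6, Picard, Trim Galore 2.6 and DESeq2, in roles that the notes used here leave out; the genome build and whether both mates of a read pair or the strand were counted are not given in the sources used here. Odd numbers made up 25.5% to 30.8% of the counts between 2 and 19 in a library. Counting both mates gives such a pattern, so intervals from counts may be too narrow. Gene IDs carry a CC-4532 v6.1 suffix, left off here. The reference table is of the v5.5 assembly and served only for gene order, so no coordinates are printed; 15386 of 17693 IDs matched it.

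The members, comparisons and naming rule were chosen with earlier results of these data known. Members were found on the normalized table, and levels are its values. Raw counts were kept by filterByExpr (15263 genes, with every member among them), TMM-scaled, and modelled in edgeR 4.0.16 by quasi-likelihood with a mean for each group, which leaves 4 residual degrees of freedom. Contrasts were tested 2-sided by glmQLFTest, and p-values were adjusted by Benjamini-Hochberg over all tested genes, with a threshold of 0.05. Standard errors of log2 fold changes were derived from the test, as size over the square root of F. The fit was tested on simulated data, in which no genes were chosen by the rule. The labels call the replicates biological, without saying what was separate. Named members were the 12 with the largest value of the smaller absolute log2 fold change, the 5 of highest mean, the 5 called each way for mating type with the largest changes, members next to each other, and the 3 genes on either side of the threshold. Any other gene was singled out with its values already in view. Markers of gametes and lists of known pathways were not analysed here, since the tables used do not pair IDs with names. The fit was repeated with DESeq2 1.42.0, with RLE factors, with scaling by library size, without a low-count filter, at a mean of at least 10 CPM, with a replicate block, and without each library in turn. R 4.3.3, Python 3.11.15 and matplotlib 3.10.9 were used.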

Additional observations from a re-analysis of the deposited data

Results flagged for a closer look

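By the rule, the genotypes differed in opposite directions in the mating types for 35 genes. The rule asked for a ratio of at least 1.3 each way and a mean of at least 20, with some loci left out. In the 35, every library labelled dnmt1 mt+ was thus below every WT mt+ library. Every library labelled dnmt1 mt- was above every WT mt- library. Genes just outside the ratio, such as Cre02.g097600, had this order of libraries too. The genes were chosen for this, so the difference was not tested. No group has 4 or more libraries, so none was examined for a single outlying library.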

How the results depend on the processing

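All 35 members kept their directions in mt+ and in mt- under the 14 other settings of the fit in which they were tested. The rule had set every library of the compared groups at least 1.3 times apart. A change of direction was thus hardly possible, and nothing is read from this. The rule found 98, 13 and 3 genes at a minimum ratio of 1.2, 1.5 and 2, 21 at a minimum mean of 100, and 46 to 112 with 1 library left out. For mating type averaged over genotypes, 4 members were higher in mt+ and 5 higher in mt- among genes of at least 10 CPM, where only 19 members were tested; with 1 library left out, 5 to 7 and 7 to 15 members were called. The replicate number as a block gave 7 and 12 members. The correlation of deviations between same-numbered libraries ran from -0.05 to 0.15 over the 6 pairs of groups. The labels give only a replicate number, and whether same-numbered libraries share a batch was not tested. Over all tested genes, the averaged contrast called 1287 to 2818 higher in mt+ and 1354 to 2890 higher in mt- with 1 library left out. The genotype contrast called 771 to 2018 higher and 529 to 2195 lower in mt+, and 761 to 2921 higher and 832 to 2840 lower in mt-, where library size scaling moved the median gene by -0.10 (log2) and called 1209 higher and 2442 lower against 1820 and 1774. The lowest counts in mt+ came without either library labelled dnmt1 mt+ and the lowest in mt- without WT mt- replicate 1; the cause was not tested. With 2 libraries a group, low-level members such as Cre10.g463370 and Cre13.g801582 have uncertain sizes of change.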
